A study of Pelodiscus sinensis with 18 samples.

Results

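Transcript levels of 9 genes of blood clotting were followed in the liver and the gut of Pelodiscus sinensis, the Chinese soft-shelled turtle, exposed to niclosamide, a compound used against worms and snails. The genes were chosen by name: the fibrinogen chain genes FGA, FGB and FGG, the coagulation factor genes F2, F5, F9 and F10, the plasminogen gene PLG and the antithrombin gene SERPINC1. All 9 of them were found among the 24880 features of the expression table. The 18 libraries fell into 6 groups of 3, namely liver and gut of wild-type turtles that were a control group or were exposed to niclosamide at 10 µg/L (nic10) or 50 µg/L (nic50). The labels give neither the age of the animals nor the length of exposure, and nothing in them states that replicate libraries are different animals. The p-values therefore measure library-to-library spread, which may be technical. Values are FPKM, fragments per kilobase of transcript scaled to a library's mapped fragments.

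Fibrinogen is a plasma protein built of α, β and γ chains, which hepatocytes make and secrete. Clotting runs through a cascade of proteases: factor IX activates factor X, activated factor X together with its cofactor, factor V, cuts prothrombin into thrombin, and thrombin turns fibrinogen into fibrin. Antithrombin blocks thrombin and activated factor X, and plasmin, made from plasminogen, dissolves the fibrin clot. These roles are known from mammals, in which the liver is the main source of all of these proteins in plasma. In the RefSeq annotation of assembly ASM4963464v1 the turtle genes FGB, FGA and FGG follow each other on chromosome 5, with PLRG1 on one side and LOC102455426 and LRAT on the other. F5 and F10 lie on chromosome 1, PLG on 3, F2 on 4, SERPINC1 on 9 and F9 on 13.

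FPKM sums were 588542 to 699273 in the livers and 677583 to 753840 in the guts, and the read depth behind them is unknown. The labelled tissues were borne out by their markers in the control groups: 18 of 19 hepatocyte markers were higher in liver and 10 of 11 enterocyte markers were lower in liver. Within 2 liver groups, libraries were unusually alike. Control libraries 2 and 3, and all 3 nic50 libraries, correlated at 0.990 to 0.993 over 10892 genes, against 0.929 to 0.968 for the other pairs within a group. Control liver 1 stood apart from the other control livers in several clotting genes, nic10 liver 3 had the highest values of 4 of 8 acute phase regulators (IL6ST, STAT3, SOCS3 and CEBPB), and nic10 guts 1 and 3 were low in enterocyte markers. The values of these libraries are given beside the results they touch.

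Fibrinogen transcripts were among the most abundant RNAs of the liver. The 3 chain genes together made up 8.65, 8.13 and 9.29% of the FPKM sum in control livers, 9.67, 11.2 and 14.8% in nic10 livers and 9.74, 10.4 and 10.1% in nic50 livers. Among all features of a liver library, FGG ranked 1st to 3rd, FGB 1st to 4th and FGA 4th to 7th. Of the chain sum, FGG supplied 38.2 to 46.6%, FGB 27.9 to 40.0% and FGA 21.7 to 26.9% over the 9 livers.

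The other genes were expressed at lower levels than the chains. Over the 9 livers the median was 24622 FPKM for FGG, 23706 for FGB and 14480 for FGA, and the ranges of neighbours in this order overlapped. SERPINC1, at a median of 1400 FPKM, and PLG, at 1160 FPKM, overlapped each other in range and lay below every chain value. F2 followed with a median of 388 FPKM, F10 with 288 FPKM and F9 with 214 FPKM, and each overlapped its neighbour. F5 was lowest, with a median of 71.7 FPKM and a range of 55.1 to 111 FPKM that reached none of the others. F10 varied least over the livers, by 1.46-fold between its lowest and highest library, and SERPINC1 varied most, by 3.38-fold.

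**Figure D1:**
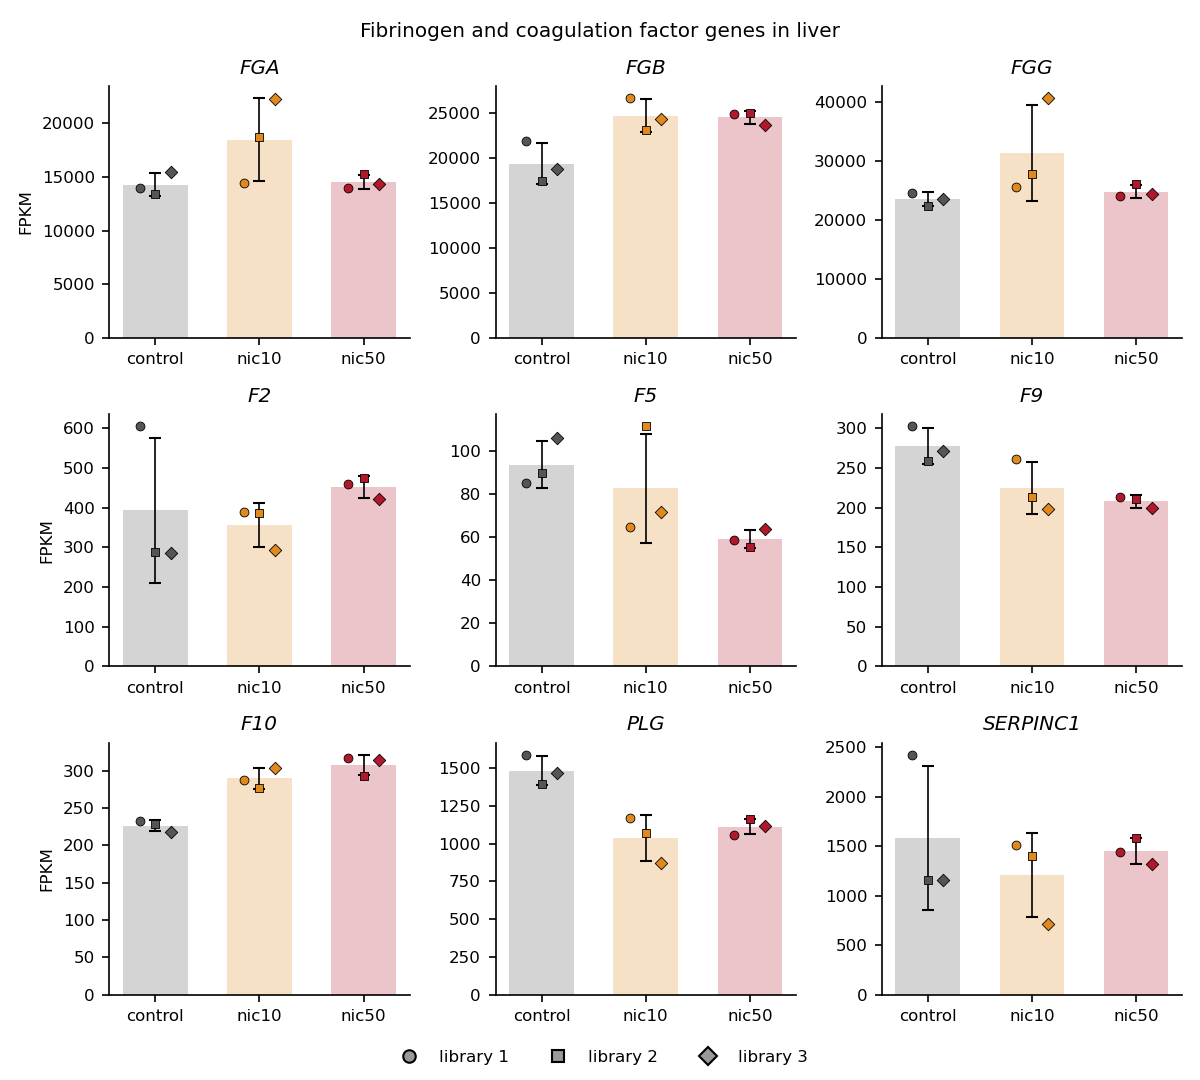
FPKM of the 9 genes in liver by group, control, nic10 and nic50 from left to right. Symbols are the 3 libraries of a group, bars are means and error bars are SD (n = 3). Control library 1 lies far above the other controls for F2 and SERPINC1, and nic10 library 3 is the highest of all livers for FGA and FGG.

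None of the 9 genes passed the test in liver at either concentration. Both concentrations were set against the same 3 control livers, so these comparisons are not independent. With limma on log2(FPKM + 1), 0 of 9 genes had an adjusted p under 0.05 at nic10 against control, where 1.07% of all 10892 genes tested did, and 2 of 9 had an unadjusted p under 0.05, beside 13.5% of all genes. At nic50 against control, 0 of 9 passed, against 4.71% of all genes, and 3 of 9 had an unadjusted p under 0.05, beside 20.4% of all genes. At nic50 against nic10, 0 of 9 passed, against 2.53% of all genes, and 0 of 9 had an unadjusted p under 0.05, beside 18.9% of all genes. The median log2 fold change of the 9 genes was -0.06 at nic10 and 0.03 at nic50, beside 0.04 and 0.13 over all genes. Some genes nonetheless had groups that did not overlap. At nic10 this held for 3 genes that lay above the controls (FGB, FGG and F10) and 1 that lay below (PLG), beside 13.8% of all genes. At nic50 it held for 2 genes above (FGB and F10) and 3 below (F5, F9 and PLG), beside 35.6% of all genes.

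The fibrinogen chain genes did not follow 1 pattern. FGA was at 13945, 13398 and 15482 FPKM in control livers, 14480, 18736 and 22233 FPKM in nic10 livers and 13958, 15252 and 14349 FPKM in nic50 livers. The nic50 values lay among the controls, and only nic10 libraries 2 and 3 exceeded every control. FGG, the chain that carries the C-terminal sites through which fibrinogen binds platelets in mammals, was at 24622, 22328 and 23622 FPKM in control livers, 25559, 27745 and 40691 FPKM in nic10 livers and 24050, 26046 and 24375 FPKM in nic50 livers. The nic10 values all lay above the controls, by 1.33-fold between the means, and library 3 supplied most of that difference. FGB was at 21912, 17476 and 18800 FPKM in control livers, 26698, 23096 and 24373 FPKM in nic10 livers and 24872, 25037 and 23706 FPKM in nic50 livers. Both exposed groups lay above every control, with means 1.27-fold that of control at each concentration. The log2 fold change of FGB was 0.35 ± 0.25 (SE) at both concentrations, with limma's adjusted p at 0.613 for nic10 and 0.494 for nic50. Leaving out each liver library in turn gave FGB log2 fold changes of 0.28 to 0.45 at nic10 and 0.27 to 0.44 at nic50, past the threshold in 0 of 6 fits each.

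In nic10 livers the FGA and FGG values ran in the same library order as 3 of the 8 acute phase regulators, STAT3, SOCS3 and CEBPB. STAT3, the transcription factor through which interleukin 6 induces fibrinogen genes in mammals, was at 43.9, 127 and 213 FPKM in nic10 libraries 1, 2 and 3, and at 35.4 to 53.2 FPKM in control livers. SOCS3, a target and inhibitor of that signal, was at 3.54, 24.6 and 69.7 FPKM in the same nic10 libraries and at 2.31 to 3.31 FPKM in controls. CEBPB, another acute phase factor, was at 15.02, 44.0 and 79.9 FPKM in nic10 livers and at 22.2 to 32.1 FPKM in controls. All 3 genes and both fibrinogen chains were highest in library 3 and lowest in library 1 of that group, and the part of these genes in the fibrinogen values was not tested. The sum of 7 exocrine pancreas markers ran in the same order, at 44.2, 105 and 217 FPKM in nic10 libraries 1, 2 and 3. Of those 7 markers, 5 were at 0 in every nic10 liver, so the sum rests on the few others. How many of all genes ran in this order was not counted. None of the 3 passed the test at nic10 against control (limma, adjusted p = 0.232 for STAT3 and 0.161 for SOCS3), and 0 of 8 acute phase regulators did. FGB did not run in that order, with its highest nic10 value in library 1.

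F10 and F5, which together form the complex that cuts prothrombin, lay on opposite sides of control. F10 was at 232, 229 and 218 FPKM in control livers, 288, 277 and 304 FPKM in nic10 livers and 317, 293 and 314 FPKM in nic50 livers. Every exposed library exceeded every control. The F10 difference was 0.35 ± 0.16 on the log2 scale at nic10 (SE, limma adjusted p = 0.356) and 0.44 ± 0.16 at nic50 (adjusted p = 0.141). F5 was at 84.9, 89.8 and 106 FPKM in control livers, 64.4, 111 and 71.7 FPKM in nic10 livers and 58.3, 55.1 and 63.6 FPKM in nic50 livers. All nic50 values of F5 lay below all control and nic10 values, while nic10 library 2 was the highest of the 9 livers. At nic50 F5 differed from control by -0.65 ± 0.22 on the log2 scale (limma, adjusted p = 0.114), which corresponds to 63.1% of the control mean. When the fit held the control and nic50 livers alone, F5 and F10 passed the threshold, with adjusted p of 0.0207 and 0.0382, and 10.8% of all genes passed in that fit.

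F9, whose product activates factor X, was at 303, 259 and 272 FPKM in control livers, 261, 214 and 198 FPKM in nic10 livers and 214, 211 and 199 FPKM in nic50 livers. The nic50 values lay below every control, and nic10 library 1 reached the control range. The F9 difference was -0.31 ± 0.17 on the log2 scale at nic10 and -0.41 ± 0.17 at nic50 (SE, limma adjusted p = 0.482 and 0.211). PLG was at 1588, 1393 and 1469 FPKM in control livers, 1170, 1069 and 871 FPKM in nic10 livers and 1060, 1160 and 1119 FPKM in nic50 livers. Every exposed library lay below every control, with exposed means at 69.9% of control at nic10 and 75.0% at nic50. The PLG difference of -0.52 ± 0.19 at nic10 and -0.41 ± 0.19 at nic50 on the log2 scale did not pass (SE, limma adjusted p = 0.254 and 0.261). In bulk tissue, fewer cells of a type and less RNA per cell cannot be told apart. The 19 hepatocyte markers, which include the genes of other plasma proteins, summed to 29026 to 35322 FPKM in nic10 livers, 31381 to 35344 FPKM in nic50 livers and 35422 to 40302 FPKM in control livers, so their sum was also below every control in every exposed liver. That sum is carried by the most abundant markers. Taken singly, the median log2 fold change of the 19 markers was -0.03 at nic10, with 9 of 19 positive, and -0.21 at nic50, with 6 of 19 positive, and at nic50 2 markers passed as higher (APOH and C9) and 0 as lower. The part of that difference in the PLG and F9 values was not tested.

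F2 and SERPINC1, the genes of thrombin's precursor and of its inhibitor, shared an outlying control. F2 was at 605, 289 and 286 FPKM in control livers, 388, 387 and 293 FPKM in nic10 livers and 459, 474 and 421 FPKM in nic50 livers. SERPINC1 was at 2426, 1163 and 1161 FPKM in control livers, 1513, 1400 and 719 FPKM in nic10 livers and 1446, 1588 and 1326 FPKM in nic50 livers. Control library 1 was 2.09-fold above the next control for both genes, so neither exposed group stood clear of the controls. Other clotting genes of the liver were higher in that library than in the other controls too. PROZ was 4.90-fold, VKORC1 3.04-fold and SERPINF2 2.09-fold above the next control. For PROZ, that library was near the exposed livers. The log2 fold change of F2 at nic50 was 0.29 ± 0.28 (SE, limma adjusted p = 0.624), and it was 0.65 without control library 1, past the threshold in 0 of 6 fits that left a library out. The SERPINC1 difference at nic50 was -0.03 ± 0.35 on the log2 scale (limma, adjusted p = 0.966) and changed to 0.32 without control library 1.

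**Figure D2:**
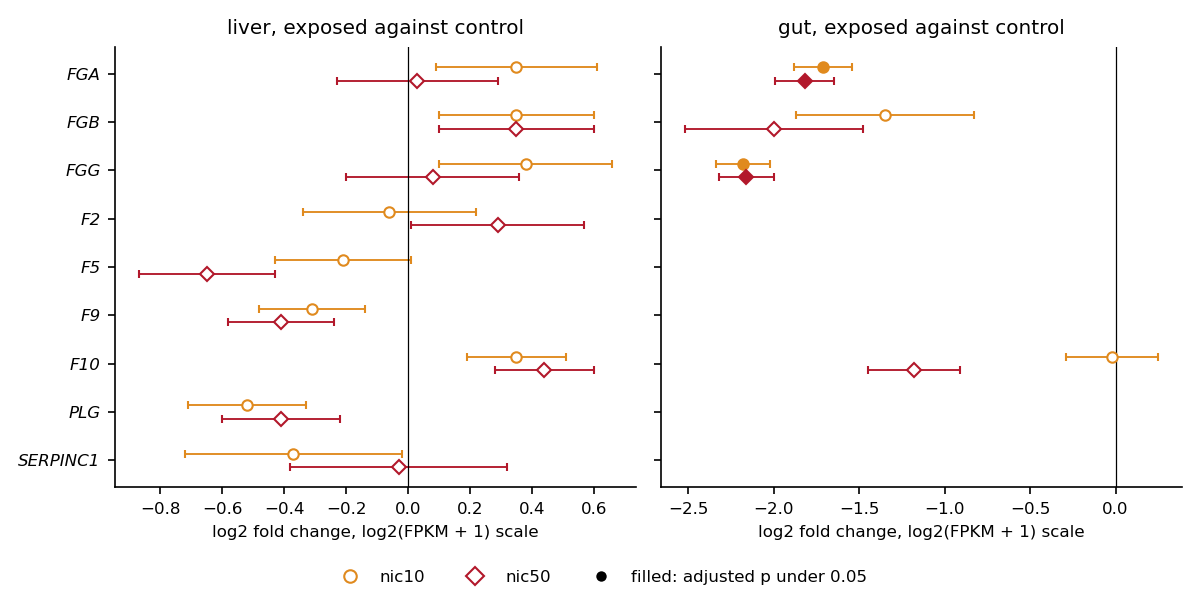
Log2 fold change of each gene at nic10 and nic50 against control, in liver (left) and gut (right), on the log2(FPKM + 1) scale. Error bars are SE from limma and filled symbols have an adjusted p under 0.05. In liver all symbols are open, and in gut FGA and FGG are filled at both concentrations; F2, F5, F9, PLG and SERPINC1 were too low in gut to be tested there.

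Between the 2 concentrations, liver groups did not overlap for 2 of 9 genes, F2 (higher at nic50) and F5 (lower at nic50), beside 28.7% of all genes. F5 had the lowest p of the 9 in that comparison, with a log2 difference of -0.44 ± 0.22 (SE, limma adjusted p = 0.305).

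Across the 9 livers some of the genes varied together in pairs, and F5 was in none of them. As a description over libraries that share their groups, Pearson's r of log2(FPKM + 1) was 0.920 for FGA with FGG, 0.883 for PLG with F9, 0.858 for F2 with SERPINC1 and 0.841 for FGB with F10. Many other genes were more alike. By likeness to the first gene of each pair, FGG ranked 22nd, F9 16th, SERPINC1 30th and F10 82nd among genes. Single libraries weigh on these values, control library 1 on F2 and SERPINC1 and nic10 library 3 on FGA and FGG. FGB was much less like the other chains, with r of 0.245 with FGA and 0.405 with FGG, although the 3 genes are neighbours on the chromosome. F10 ran opposite to PLG (r = -0.854) and to F9 (r = -0.835). Among 4209 genes with a mean liver FPKM of at least 10, the genes most like FGB were SMARCB1 (r = 0.971), UBE2L3 (0.969), DRG1 (0.961), CUNH12orf43 (0.960) and RAN (0.958).

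Of the other genes of clotting, its control, the liver's acute phase and the regulators of hepatocytes, 51 were tested in liver. The hepatocyte regulators, NR0B2 and ONECUT1 among them, were 10 of the 51. At nic10 against control 0 were higher and 1 was lower with limma, where 0.331% of all genes were lower. An unadjusted p under 0.05 was found for 13 of the 51, beside 13.5% of all genes. The gene that fell was NR0B2, which encodes a repressor of bile acid synthesis, at 8.17, 20.9 and 13.3 FPKM in nic10 livers and 34.4, 70.8 and 81.4 FPKM in control livers. Its log2 fold change was -2.06 ± 0.36 (SE, adjusted p = 0.0263), and the groups did not overlap. It did not pass without control library 2 or 3 or nic10 library 3 (adjusted p of 0.122, 0.120 and 0.0682), with no filter on low values (0.0831), in the fit of only the groups compared (0.0933) or with the alike livers averaged (0.256). At nic50 against control 4 of the 51 genes were higher, where 3.69% of all genes were, and 1 was lower, where 1.02% were. At nic50 against nic10, 1 was higher and 1 was lower, beside 1.79% and 0.744% of all genes.

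Those 4 genes were TFPI, FGL1, MCFD2 and CEBPA. TFPI, whose product inhibits the tissue factor pathway that starts clotting, was at 17.8, 19.5 and 13.03 FPKM in control livers, 19.5, 13.5 and 10.9 FPKM in nic10 livers and 40.0, 40.7 and 42.6 FPKM in nic50 livers. The nic50 livers had about the same level as each other and lay above all the rest. TFPI rose by 1.26 ± 0.23 on the log2 scale at nic50 against control (SE, limma adjusted p = 0.0133) and by 1.47 ± 0.23 against nic10 (adjusted p = 0.00873). FGL1, a fibrinogen-like protein secreted by hepatocytes, rose by 1.73 ± 0.33 at nic50 (limma, adjusted p = 0.0186), with 7.23, 8.71 and 11.8 FPKM in nic50 livers and 1.47, 2.56 and 2.20 FPKM in control livers. MCFD2, part of the receptor that carries factors V and VIII out of the endoplasmic reticulum, rose by 0.98 ± 0.23 (adjusted p = 0.0362), with 101, 108 and 121 FPKM in nic50 livers and 50.0, 60.9 and 55.2 FPKM in control livers. F5, whose product is a cargo of that receptor, had its lowest values in the same nic50 livers but did not pass. Any link between MCFD2 and the F5 values was not tested. CEBPA, a transcription factor of hepatocytes, rose by 0.86 ± 0.16 (limma, adjusted p = 0.0144), and ONECUT1, another, fell by 1.07 ± 0.20 (adjusted p = 0.0164) at levels of 0.277 to 0.921 FPKM in nic50 livers and 1.89 to 2.75 FPKM in control livers.

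Each of these calls was lost without some library. Against control at nic50, TFPI, FGL1 and CEBPA passed without control library 1 or 2 and did not pass without control library 3 or any 1 nic50 library, ONECUT1 passed without control library 1 or nic50 library 2 alone, and MCFD2 passed in 0 of 6 such fits. The directions held, with log2 fold changes of 0.91 to 1.05 for MCFD2, 1.10 to 1.38 for TFPI and 1.55 to 1.87 for FGL1. Against nic10, TFPI passed without any 1 nic10 library and did not pass without any 1 nic50 library (adjusted p of 0.0574 to 0.0721). With the alike livers averaged, which leaves fewer samples, none of these 5 genes passed at nic50 against control (adjusted p of 0.931 to 0.999). In the same nic50 livers 5 of 9 tested stellate cell and fibroblast markers rose, and the list summed to 40.8, 49.3 and 63.9 FPKM in nic50 livers and 14.3, 19.2 and 18.3 FPKM in control livers. The part of that difference in the TFPI values was not tested.

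**Figure D3:**
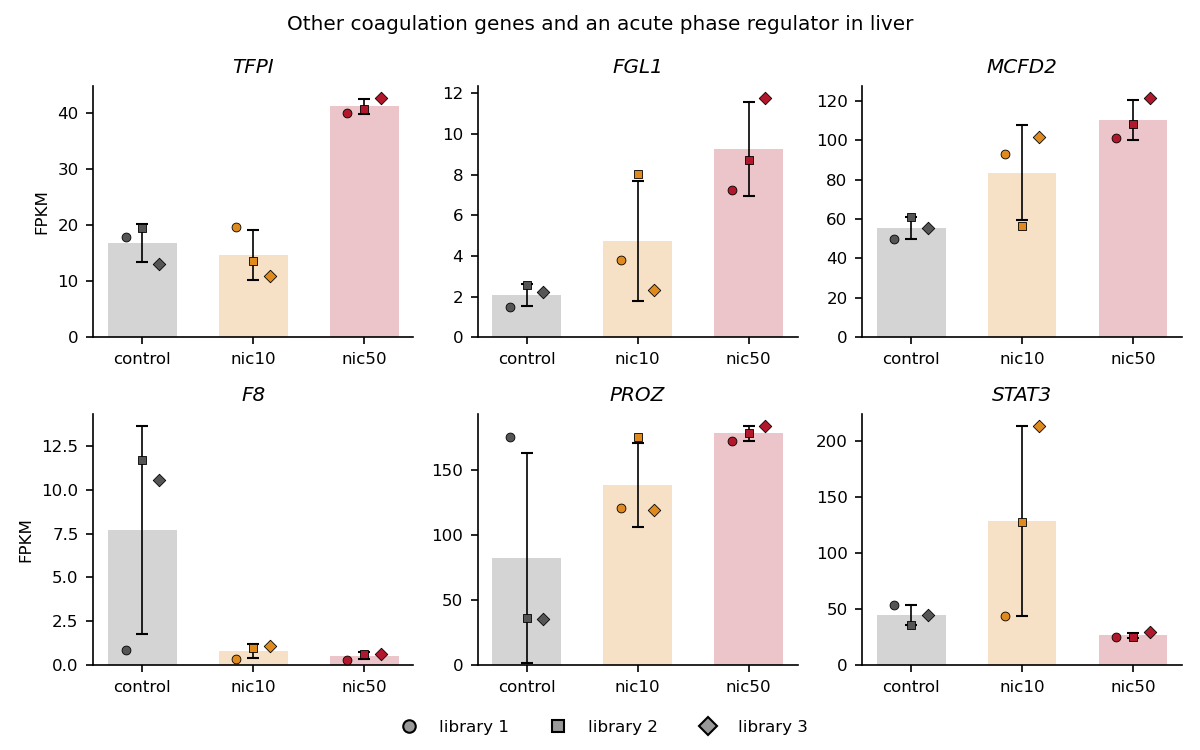
FPKM of 5 other clotting genes and of STAT3 in liver by group, control, nic10 and nic50 from left to right, with the 3 libraries as symbols, the mean as a bar and the SD as an error bar (n = 3). TFPI is near 40 FPKM in the nic50 livers and at most 19.5 FPKM in all others. For F8 and PROZ control library 1 lies near the exposed livers and the other controls stand apart. STAT3 spans 43.9 to 213 FPKM within nic10.

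Among genes of the same lists that did not pass, F8 and PROZ split the controls. Control library 1 was near the exposed livers, and the other controls, which were alike libraries, stood apart. F8, the cofactor of factor IX, was at 0.845, 11.7 and 10.6 FPKM in control livers, 0.358, 0.978 and 1.07 FPKM in nic10 livers and 0.295, 0.636 and 0.628 FPKM in nic50 livers. Control library 1 was thus at the level of the exposed livers, and the difference at nic50 of -2.10 ± 0.59 on the log2 scale did not pass (SE, limma adjusted p = 0.0708). PROZ, the gene of protein Z, was at 175, 35.7 and 34.97 FPKM in control livers, 120, 175 and 119 FPKM in nic10 livers and 172, 178 and 184 FPKM in nic50 livers. Control library 1 was thus near the exposed livers, and the other controls lay far below all of them. SERPINA10, the protease inhibitor that works with protein Z, was at 104, 106 and 119 FPKM in nic50 livers and 167, 149 and 169 FPKM in control livers (log2 fold change -0.56 ± 0.16, limma adjusted p = 0.0709). CPB2, which protects fibrin from plasmin, was at 194, 248 and 151 FPKM in nic10 livers and 351, 302 and 335 FPKM in control livers (-0.76 ± 0.20, adjusted p = 0.115). At nic50 against nic10, STAT3 fell by 1.98 ± 0.44 on the log2 scale (adjusted p = 0.0439), with 24.8, 25.1 and 29.0 FPKM in nic50 livers; it passed without nic10 library 1 and in none of the other 5 fits that left a library out. STAT3 also did not pass with a pseudocount of 0.1, another filter, another scaling, the replicate block, only the groups compared or the alike livers averaged (adjusted p of 0.0526 to 0.9997).

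All 9 genes were higher in liver than in gut of control turtles (limma, adjusted p under 0.05 for 9 of 9, where 12.6% of 13475 genes were higher in liver). The log2 differences ran from 4.64 ± 0.21 for F10 to 11.94 ± 0.16 for FGG (SE). The gut level relative to liver differed widely between the genes. As a percent of the control liver mean, the control gut mean of FGA was at 0.0226%, FGB at 0.0213%, FGG at 0.0212% and PLG at 0.0168% of liver. SERPINC1 at 0.0425%, F2 at 0.0491% and F9 at 0.0806% followed. F5 was at 0.875% and F10 at 3.63% of liver, and F10 was above 1 FPKM in all 9 guts.

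In gut, the fibrinogen chain genes were detected at a few FPKM in control animals and were close to 0 in exposed ones. FGG was at 5.29, 4.60 and 5.08 FPKM in control guts, 0.192, 0.314 and 0.460 FPKM in nic10 guts and 0.418, 0.303 and 0.308 FPKM in nic50 guts. FGA was at 3.04, 3.67 and 2.96 FPKM in control guts, 0.393, 0.180 and 0.305 FPKM in nic10 guts and 0.158, 0.228 and 0.199 FPKM in nic50 guts. For both genes every exposed gut lay far below every control gut, with the exposed means at 6.05 to 9.07% of the control mean. The share of all genes whose gut groups did not overlap is not given here, so that separation alone supports nothing. FGB was at 3.60, 4.74 and 4.08 FPKM in control guts, 0.254, 4.57 and 0.169 FPKM in nic10 guts and 0.479, 0.207 and 0.173 FPKM in nic50 guts. Its value in nic10 library 2 was that of a control gut, although FGA and FGG were low in that library.

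**Figure D4:**
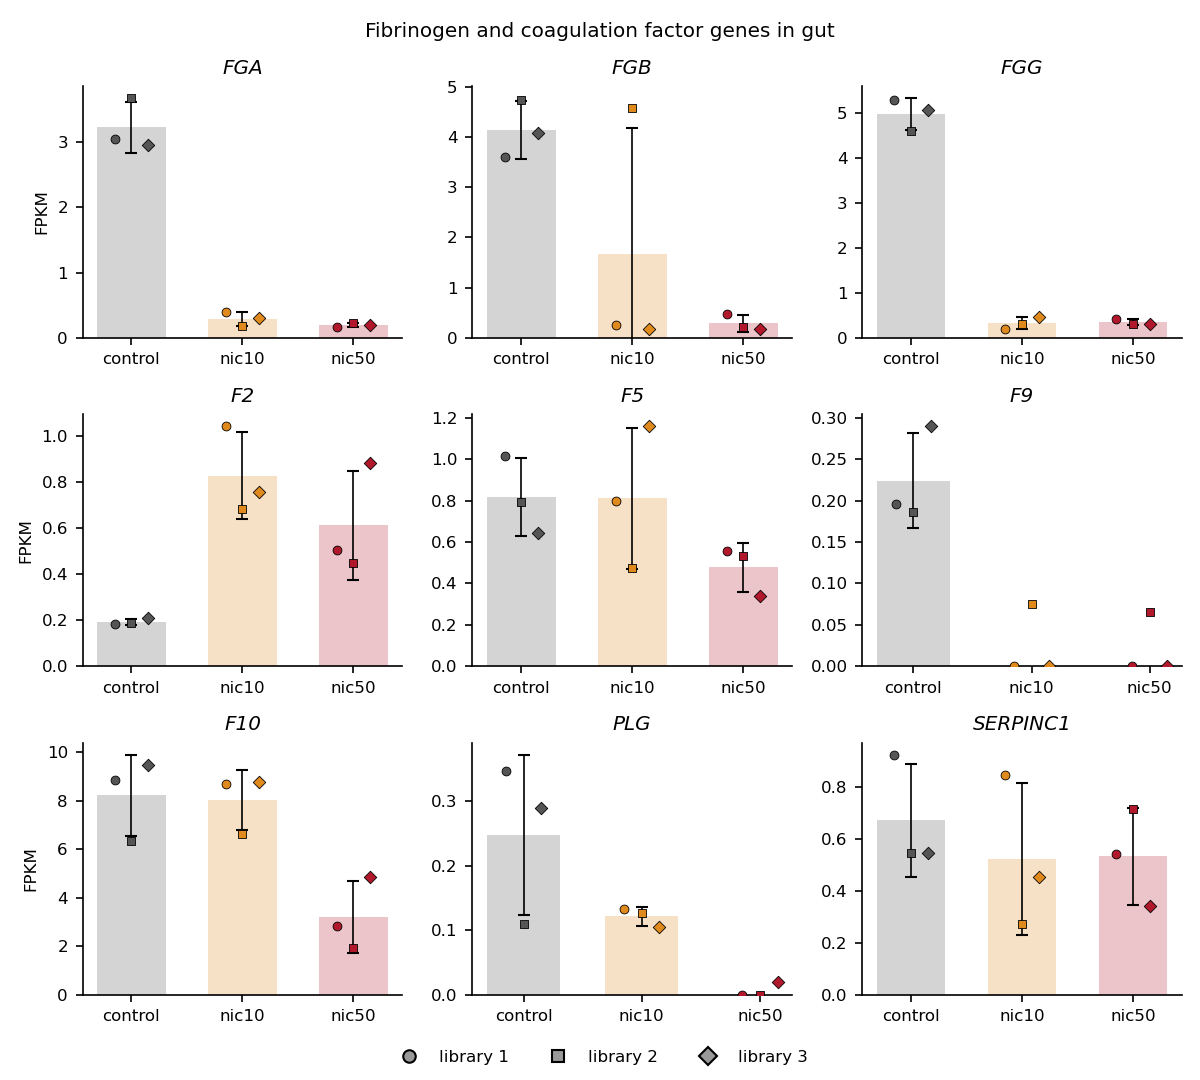
FPKM of the 9 genes in gut by group, control, nic10 and nic50 from left to right. Symbols are the 3 libraries, bars are means and error bars are SD (n = 3); groups with a library listed at 0 have no bar. FGA, FGG and, except for nic10 library 2, FGB are at 2.96 to 5.29 FPKM in control guts and below 0.5 FPKM in exposed guts.

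FGG fell by 2.18 ± 0.16 on the log2(FPKM + 1) scale at nic10 (SE, limma adjusted p = 0.00111) and by 2.16 ± 0.16 at nic50 (adjusted p = 0.00372). FGA fell by 1.71 ± 0.17 at nic10 (limma, adjusted p = 0.00548) and by 1.82 ± 0.17 at nic50 (adjusted p = 0.00650). This scale understates changes of genes near 1 FPKM. At nic10, 2 of the 4 genes tested in gut were lower, and 0.0951% of all 12617 genes tested were. At nic50, 2 of 4 were lower and 0.0238% of all genes were, which was 3 genes in all. The test took genes of at least 1 FPKM in 3 guts, and FGA and FGG reached it through the control guts alone, so a difference between groups was built into their selection and the counts support nothing. With no filter on low values FGG and FGA passed at both concentrations. Limma's adjusted p was 0.00144 and 0.00152 at nic10 and 0.00233 for both at nic50. The log2 differences were the same in that fit and the SE was smaller, 0.13 for FGG and 0.12 for FGA, so it adds no separate support. FGB did not pass, with a log2 difference of -1.35 ± 0.52 at nic10 (limma, adjusted p = 0.292) and a mean at 6.92% of control at nic50 (adjusted p = 0.532). At nic50 FGB passed in the fit of only the groups compared (adjusted p = 0.0241), where 0.092% of all genes did. Without nic10 library 2 the FGB difference at nic10 was -2.08 (limma, adjusted p = 0.00400, 190 genes in all). In both of these fits FGB too met the filter through the control guts alone, so these passes support nothing. The latter fit also drops the nic10 gut with a control level of FGB. With library weights the FGB difference at nic10 was -2.04 (limma, adjusted p = 0.00949), where 14.6% of all genes passed. Leaving out nic10 libraries 1 and 3, those low in enterocyte markers, left 1 nic10 gut, too few for a test. The differences at nic10 were then -1.84 for FGA, -2.19 for FGG and 0.12 for FGB. At nic50, with the same genes tested, neither gene passed without control library 1 (adjusted p = 0.0643 for FGA and 0.0501 for FGG), and FGA did not without control library 2 (0.0542). At nic50 against nic10 0 of 4 genes passed with limma, where 0.119% of all genes did, and 1 of 4 had an unadjusted p under 0.05, beside 14.2% of all genes.

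The gut libraries differed in other liver genes as well. Of the 19 hepatocyte markers, 11 reached 1 FPKM in some gut, and 8 (AHSG, APOH, C5, C9, FETUB, ITIH2, RBP4 and VTN) stayed below 1 FPKM in all 9 guts. The 8 low markers summed to 2.08, 1.44 and 2.04 FPKM in control guts, 0.440, 0.135 and 0.590 FPKM in nic10 guts and 0.425, 0.552 and 0.677 FPKM in nic50 guts. All exposed guts lay below all control guts in this sum. Taken singly, 6 of the 8 markers were lower in every nic10 gut than in every control gut, and 5 of 8 were lower in every nic50 gut. The share over all genes was not counted at levels this low, so these counts support nothing. Of the 8, 2 to 6 were listed at 0 in each exposed gut, and 0 or 1 in each control gut. These 8 were taken for being low in every gut, so markers that were high in an exposed gut are not among them. Of the other 11 markers, 5 had a higher mean in nic10 than in control guts, TF at 61.0, 1.66 and 54.1 FPKM in nic10 guts and 6.28, 3.38 and 7.34 FPKM in control guts among them, and 2 of 11 had a higher mean in nic50 guts. C5, within the 8, averaged 0.201 FPKM in nic10 guts and 0.0893 FPKM in control guts. Over all 19 markers, 13 means were lower at nic10 and 16 at nic50 than in control guts. In control guts the median level of the 8, which were taken for being low in gut, was 0.0165% of liver. The fibrinogen chains were at 0.0212 to 0.0226% and PLG at 0.0168%. SERPINC1 at 0.0425%, F2 at 0.0491% and F9 at 0.0806% lay higher, and the other 11 markers ran from 0.0307% for TAT to 89.3% for APOA1. FGG supplied 44.3, 35.4 and 41.9% of the chain sum in control guts, FGB 30.2, 36.4 and 33.7% and FGA 25.5, 28.2 and 24.4%. Over the 9 livers the ranges were 38.2 to 46.6% for FGG, 27.9 to 40.0% for FGB and 21.7 to 26.9% for FGA. Control gut library 2 lay outside them for FGG and FGA. The part of the difference in hepatocyte markers in the fibrinogen values was not tested.

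**Figure D5:**
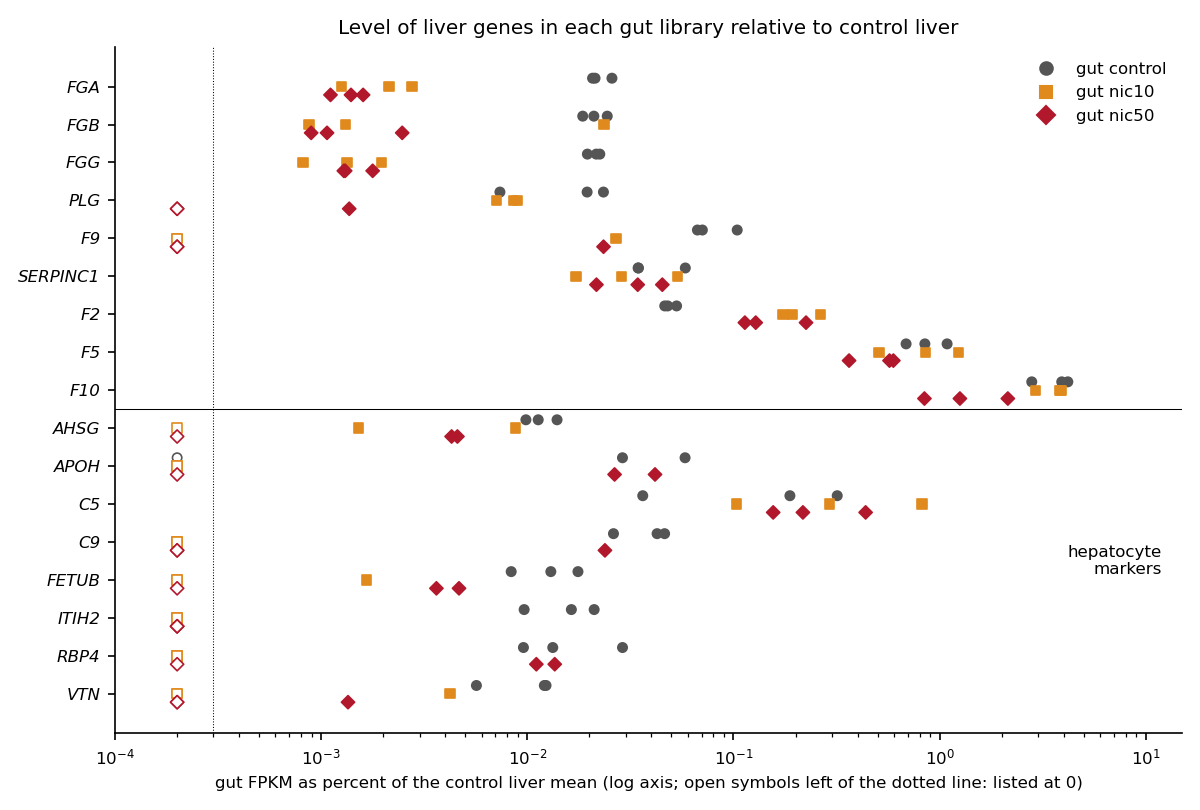
Level of the 9 genes and of the 8 low hepatocyte markers in each gut library as a percent of the control liver mean, on a log axis, for control, nic10 and nic50 guts. Each symbol is 1 library, and open symbols left of the dotted line are values listed at 0. In control guts the fibrinogen chains lie between 0.0186 and 0.0257% of liver, close to most of the 8 markers shown, while F5 and F10 lie far to the right. The 8 were taken for being low in every gut, so their low level here is built in.

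The remaining genes had other patterns in gut. F10 was at 8.86, 6.34 and 9.49 FPKM in control guts, 8.71, 6.61 and 8.78 FPKM in nic10 guts and 2.84, 1.91 and 4.85 FPKM in nic50 guts. The nic10 guts matched the controls and the nic50 guts lay below all others. The F10 difference at nic50 was -1.18 ± 0.27 on the log2 scale against control (SE, limma adjusted p = 0.388) and -1.15 ± 0.27 against nic10 (adjusted p = 0.146), so it did not pass over all genes. F2, below the limit for testing, was at 0.183, 0.189 and 0.208 FPKM in control guts, 1.04, 0.684 and 0.758 FPKM in nic10 guts and 0.505, 0.447 and 0.885 FPKM in nic50 guts, with every exposed gut above every control. It ran opposite to the fibrinogen chains in the same libraries. F9, like FGA and FGG, was lower in every exposed gut than in every control gut. It was at 0.196, 0.186 and 0.290 FPKM in control guts and was listed at 0 in 2 of 3 guts of each exposed group, with 0.0747 FPKM in nic10 library 2 and 0.0651 FPKM in nic50 library 2. PLG was at 0.347, 0.109 and 0.289 FPKM in control guts, 0.133, 0.127 and 0.105 FPKM in nic10 guts and 0.0203 FPKM in nic50 library 3, and was listed at 0 in the other nic50 guts. F5 was at 1.02, 0.794 and 0.643 FPKM in control guts, 0.799, 0.475 and 1.16 FPKM in nic10 guts and 0.558, 0.534 and 0.340 FPKM in nic50 guts, so the nic50 guts lay below the controls, and at 58.4% of their mean. SERPINC1 ranged over 0.273 to 0.925 FPKM in the 9 guts. At values this low a difference of a few reads cannot be told from a change, because the depth is unknown. The share of all genes with separate gut groups is not given, so the separations of F10, F2, F9 and F5 support nothing.

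The response of liver and gut was compared in 1 fit of all 18 libraries, as the liver change minus the gut change. At nic10, 2 of the 9 genes passed, where 0.208% of all genes had a higher response in liver: FGG, with a log2 difference of 2.57 ± 0.23 (SE, limma adjusted p = 5.70e-05), and FGA, with 2.06 ± 0.22 (adjusted p = 1.98e-04). At nic50, 3 of 9 passed, where 0.839% of all genes did: FGG, with 2.23 ± 0.23 (adjusted p = 2.04e-04), FGA, with 1.84 ± 0.22 (adjusted p = 5.93e-04), and F10, with 1.62 ± 0.29 (adjusted p = 0.0128). FGG and FGA passed in all 12 fits that left out 1 library at either concentration. F10 passed in 11 of 12, and had an adjusted p of 0.0563 without liver nic50 library 3. The FGB differences of 1.70 ± 0.55 at nic10 and 2.35 ± 0.55 at nic50 did not pass (limma, adjusted p = 0.273 and 0.0588). FGB passed at nic10 without gut nic10 library 2, where FGB was at a control level (limma, adjusted p = 2.71e-05, 175 genes in all). With library weights it passed there too (1.35e-04), where 20.2% of all genes did. At nic50 it passed with quantile normalization (0.0286, 97 genes in all), library weights (0.00149, 4.05% of all genes) and only the groups compared (1.24e-04, 1.98% of all genes). The main fits called 49 genes at nic10 and 133 at nic50.

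In gut, 40 of the other clotting, acute phase and hepatocyte regulator genes were tested, and 0 passed in any of the 3 comparisons with limma. An unadjusted p under 0.05 was found for 6 of them at nic10 against control, 7 at nic50 against control and 16 at nic50 against nic10, beside 14.9%, 6.5% and 14.2% of all genes in the same order. Those with the lowest p at nic50 were PLAU, the urokinase that activates plasminogen, at 7.01, 8.18 and 5.81 FPKM in nic50 guts and 22.3, 16.1 and 11.9 FPKM in control guts (log2 fold change -1.12 ± 0.24, limma adjusted p = 0.377), and PROS1, the cofactor of the anticoagulant protein C, at 2.15, 1.89 and 2.18 FPKM in nic50 guts and 5.15, 4.86 and 5.61 FPKM in control guts (-1.01 ± 0.23, adjusted p = 0.386). At nic10 the lowest p was that of VWF, which tethers platelets to injured vessels, with 12.6, 6.79 and 11.8 FPKM in nic10 guts and 4.98, 4.88 and 5.33 FPKM in control guts (0.87 ± 0.23, adjusted p = 0.197). The response at nic50 differed between the tissues for 5 of 52 such genes, all with the higher change in liver, where 0.839% of all genes had one: TFPI by 1.66, PLAU by 1.94, MCFD2 by 1.37, PROS1 by 1.20 and FGL1 by 2.34 on the log2 scale (limma, adjusted p of 0.0117 to 0.0454). Of the 12 fits that left out 1 library, TFPI passed in 11, PLAU in 8, MCFD2 in 4, FGL1 in 1 and PROS1 in 0.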

How the data were processed

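RNA from liver and gut was extracted with TRIzol and made into libraries with a VAHTS Universal V6 kit, per the labels' protocols. Per the submitters' processing notes, CASAVA was used. In the sources used here the aligner, counter and build are not given. The authors deposited 1 table of FPKM values for 24880 features and 18 libraries, per the file headers. Depth could not be recovered: the commonest ratio between low values was shared by 0.334 to 0.818% of low genes over 153 pairs of libraries. Symbols came from the table for 13455 features and from RefSeq for 975.

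Tests used limma 3.58.1 (R 4.3.3) with its variance trend on log2(FPKM + 1), for genes of at least 1 FPKM in at least 3 libraries of the fit. Each tissue was fitted on its own 9 libraries, and tissues were compared in 1 fit of all 18. Tests were two-sided, with Benjamini-Hochberg adjustment over all genes tested and a threshold of 0.05. Fits were checked on simulated data. Alternatives were other pseudocounts, filters, scalings (trimmed means, quantiles), library weights, a replicate block, averaging of alike livers and libraries left out. The 9 genes are all named; of the other lists, genes past the threshold and some of the lowest p are named. Genes and lists were chosen with earlier results of these data known. How the authors' counting treated reads of near-identical genes is unknown. Protein and promoter sequences were not used here.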

Additional observations from a re-analysis of the deposited data

Results flagged for a closer look

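The change at nic10 differed between liver and gut for 2 of the 9 genes, by a test of the difference itself. The liver change minus the gut change was 2.57 for FGG and 2.06 for FGA on the log2 scale. At nic50 it was 2.23 for FGG and 1.84 for FGA, and 1.62 for F10. For FGA and FGG the guts supplied most of the difference at nic10 and nearly all of it at nic50. The log2 fold changes in liver were 0.35 and 0.38 at nic10 and 0.03 and 0.08 at nic50. Those gut levels were low, with control means of 3.22 FPKM for FGA and 4.99 FPKM for FGG, at 0.0226 and 0.0212% of liver. The depth behind them is unknown. The sum of the 8 low hepatocyte markers was also lower in every exposed gut than in every control gut. Those 8 were taken for being low in every gut, and C5 among them had a higher mean in both exposed groups. Of the other 11 markers, 5 had a higher mean in nic10 than in control guts, and 2 in nic50 guts. The part of the marker sum in the FGA and FGG values was not tested. For F10 the liver and gut changes had opposite signs, at 0.44 in liver and -1.18 in gut, and neither passed on its own.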

How the results depend on the processing

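Over 1285 values of single genes under the alternatives, 1099 kept their direction and side of the threshold, 57 changed sign without being past it, 21 came to pass it, 108 no longer passed it and 0 reversed. Genes past the threshold in neither fit are among those that kept their side. The pooled count therefore does not measure how firm the calls were, and the 108 losses all fell on genes that had passed. In liver the count of 0 of 9 at either concentration held under every alternative but these: library weights gave 3 at nic10, 6 at nic50 and 1 at nic50 against nic10 (those weights did not converge and called 2804, 3373 and 4797 genes in all, beside 116, 513 and 276), and the fit of only the groups compared gave 2 at nic50 (1137 genes in all). Averaging the alike livers left 11, 2 and 4 genes in all, and leaving out 1 liver gave 17 to 569, 63 to 718 and 37 to 1434. In gut the count of 2 became 0 at both concentrations with a minimum mean of 5 FPKM, where FGA and FGG are untested. It became 1 at nic50 with a pseudocount of 0.1, where FGA had an adjusted p of 0.0724. It rose to 3, with FGB, at nic50 in the fit of only the groups compared (11 genes in all) and at nic10 with library weights (1838 genes in all). In the fit of only the groups compared FGB met the filter through the control guts alone. Library weights gave 1 at nic50 against nic10 (F10). Leaving out 1 gut gave 0 to 3 at nic10 and 0 to 2 at nic50, because without a control gut FGA and FGG fall below the filter. With the filter of all 9 guts kept, an alternative chosen after seeing the data, leaving out a control gave 2 each time at nic10 and 0, 1 and 2 at nic50. Over all genes the gut fits without 1 library, each with its own filter, called 4 to 190 at nic10 (22 with all) and 0 to 14 at nic50 (3 with all). With the filter of all 9 guts kept, 21 were called at nic50 without control library 3. The liver against gut count stayed at 9, and the responses that differed numbered 2 to 3 at nic10 and 2 to 4 at nic50.

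Same-numbered libraries of 2 groups of a tissue correlated at -0.29 to 0.25 in their deviations from group means, above 0.1 in 7 of 18 pairs. Between liver and gut the values were -0.22 to 0.26, above 0.1 in 2 of 9 pairs. Libraries of different numbers were not compared, so these values cannot decide whether replicate numbers pair the samples. The main fits, that of all 18 libraries among them, took libraries as unpaired. With the replicate block 1 of the genes passed at nic50 in gut, where FGA had an adjusted p of 0.09995, and MCFD2 in liver had 0.0507 at nic50. With values rescaled by trimmed means, TFPI and MCFD2 did not pass at nic50 in liver (adjusted p of 0.0536 and 0.0864). The unknown depth limits all gut values near or below 1 FPKM.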

Other observations

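The 5 genes whose liver pattern was most like that of FGB came largely from 1 chromosome. SMARCB1, UBE2L3, DRG1 and RAN lie on chromosome 15 in the RefSeq annotation of assembly ASM4963464v1, and CUNH12orf43 has no chromosome in that table. Of the 3364 compared genes with a chromosome, 81 (2.41%) are on chromosome 15, and FGB itself is on chromosome 5. RAN, the nuclear transport GTPase, was at 76.0, 45.9 and 39.7 FPKM in control livers, 146, 82.2 and 94.0 FPKM in nic10 livers and 104, 92.7 and 97.6 FPKM in nic50 livers. All 5 genes were lowest in control livers 2 and 3, the alike libraries, and control liver 1 lay between those and the exposed livers. UBE2L3, for example, was at 17.7, 10.5 and 10.3 FPKM in control livers and at 19.8 to 30.2 FPKM in exposed livers. The sample titles do not give the sex of the animals, and the part of sex in this pattern was not tested. These are values only, and this pattern was not tested.

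F3, the tissue factor gene that starts clotting, had its levels the other way round from the 9 genes. It was at 0.578 to 1.93 FPKM in control livers and at 29.3 to 46.4 FPKM in control guts.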
